A study of Mus musculus with 16 samples.

Results

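The genes described here encode the AP-1 family of transcription factors. They are the 10 genes Fos, Fosb, Fosl1, Fosl2, Jun, Junb, Jund, Atf3, Batf and Maff, chosen by name and found by their Ensembl identifiers, out of 39179 gene identifiers counted. All 10 passed the filter on low counts that left 13305 genes for testing. They were followed through antigen activation of bone marrow derived mast cells (BMMCs) and through treatment with dexamethasone (DEX), in cells with and without the tyrosine phosphatase PEP.

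AP-1 is a dimer of basic leucine zipper proteins. A Fos protein can pair only with a partner, usually a Jun protein, whereas Jun proteins also pair with each other, and the pair decides which DNA sequences are bound and how strongly transcription is driven. Many of these genes are immediate early genes, transcribed within minutes of receptor signalling through MAP kinases. In mast cells, AP-1 is known for driving cytokine genes after the IgE receptor is cross-linked, and the glucocorticoid receptor is known for restraining AP-1 activity.

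RNA was sequenced from 16 BMMC samples, 2 biological replicates in each of 8 conditions. The cells were grown for 4 weeks from bone marrow of male C57BL/6 mice aged 8 to 10 weeks, in medium with stem cell factor and IL3, and every sample was sensitized with IgE for 3 h. The labels give 0.05 µg/ml IgE, which is below the dose in the study's methods. PEP+/+ and PEP-/- BMMCs received IgE alone, IgE followed by the antigen dinitrophenol (DNP, on albumin, 200 ng/ml for 1 h), DEX (100 nM for 8 h) with IgE, or DEX with IgE and DNP, and these are named IgE, IgE DNP, IgE DEX and IgE DNP DEX. PEP-/- cells lack PEP, encoded by Ptpn22. How many mice or cultures stood behind the replicates was not given, so the p-values measure the spread between these samples, and 1 replicate of each condition carries a number (replicate 1) and the other a letter (replicate 2).

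Between 8612531 and 22143526 reads per sample were counted on genes. Levels are CPM (counts scaled to a common library size), adjusted by the trimmed mean of M values (TMM) of edgeR, and levels are compared between genes only after division by the summed length of a gene's exons (CPM per kb). Ptpn22 stood at 11.3 to 175 CPM in the 8 PEP+/+ samples and at 0 to 3.03 CPM in the 8 PEP-/- samples. Tsc22d3, a glucocorticoid target, stood at 725 to 1277 CPM with DEX and at 43.9 to 134 CPM without. The 11 mast cell markers summed to between 67490 and 114898 CPM, against 0 to 2.35 CPM for 6 neutrophil, 5.8 to 17.9 CPM for 6 macrophage, 0 to 0.605 CPM for 3 B cell, 0 to 0.294 CPM for 3 T cell, 1.22 to 10.3 CPM for 3 erythroid and 0 to 0.75 CPM for 3 dendritic cell markers. The 3 basophil markers summed to between 228 and 882 CPM and the 3 megakaryocyte markers to between 1940 and 3921 CPM. Nearly all of the megakaryocyte sum was Itga2b, at 1939 to 3919 CPM, which is not exclusive to that cell type. Pf4 and Gp9 reached at most 0.189 and 2.42 CPM. In such bulk samples, more RNA per cell and more cells that express a gene cannot be told apart. Numbered samples differed from lettered samples in the same way across conditions, with reads outside annotated genes at 4.69 to 7.18% of the total against 8.35 to 11%, so results whose call changes when the set is fitted as a replicate block are given with that value too. All fits that left out a sample were run without this block, so they also unbalanced the sets.

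The promoters carry a sequence of interest for genes that respond within an hour, since the letters TGACG form the core of the cAMP response element bound by CREB and ATF proteins. RefSeq promoter windows (GRCm38.p6, from 250 bases before to 50 after a start) were found for 9 of the 10 genes and not for Fosl1. TGACG stood, on either strand, in a window of 6 genes, namely Fos, Fosb, Junb, Atf3, Batf and Maff, and 20.8% of all 32851 windows of that length hold it. The 9 genes had 11 windows, 3 of them of Maff, so the count is by gene and the share by window. The stretches below are the last 150 bases outside annotated exons before that start, for 5 of the genes that responded to antigen and for Batf, with TGACG or the longer TGACGTCA in capitals. They lie at chr12:85473740-85473889, + strand for Fos, chr7:19310052-19310201, - strand for Fosb, chr8:84978749-84978898, - strand for Junb, chr1:191183341-191183490, - strand for Atf3, chr15:79347370-79347519, + strand for Maff, and chr12:85686519-85686668, + strand for Batf.
Fos: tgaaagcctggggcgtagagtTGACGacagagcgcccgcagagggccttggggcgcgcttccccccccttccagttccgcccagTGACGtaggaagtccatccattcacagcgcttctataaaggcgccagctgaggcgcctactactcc
Fosb: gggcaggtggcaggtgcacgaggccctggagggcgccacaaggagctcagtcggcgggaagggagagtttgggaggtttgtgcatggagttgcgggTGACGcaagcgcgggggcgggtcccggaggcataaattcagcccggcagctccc
Junb: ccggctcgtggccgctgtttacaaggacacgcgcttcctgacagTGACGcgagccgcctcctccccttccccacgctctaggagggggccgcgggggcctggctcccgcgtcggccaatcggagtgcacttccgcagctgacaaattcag
Atf3: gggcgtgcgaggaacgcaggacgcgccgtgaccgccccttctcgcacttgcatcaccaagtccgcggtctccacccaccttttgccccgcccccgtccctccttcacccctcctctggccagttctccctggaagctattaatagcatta
Maff: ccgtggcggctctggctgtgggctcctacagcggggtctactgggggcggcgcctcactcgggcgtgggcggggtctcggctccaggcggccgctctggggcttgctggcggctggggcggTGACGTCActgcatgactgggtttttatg
Batf: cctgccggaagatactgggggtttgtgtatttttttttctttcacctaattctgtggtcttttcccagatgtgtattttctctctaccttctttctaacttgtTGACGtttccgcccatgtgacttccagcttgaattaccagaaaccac

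Fos held TGACG at 2 places, and Fosb, Junb and Batf at 1 each. In Atf3 the match was on the opposite strand at positions -7 to -3 from the RefSeq start, in an annotated exon past the end of the printed stretch. Maff, for which RefSeq has 3 windows, held the full palindrome TGACGTCA in the one printed, which contains TGACG, and 1.79% of all windows hold it. The Maff window at the annotated gene start held no match. No window of the 9 genes held TGANTCA, a wider form of the AP-1 site that allows any central base (7.81% of all windows). None held a CArG box (1.63%) or the palindromic glucocorticoid response element (0.00913%). Sequence outside the windows and variants of these sites were not searched, so the absence covers these windows and exact spellings only. The windows of Fosl2, Jun and Jund held none of these letters, and the Jund window lies upstream of the annotated gene. The RefSeq starts of Atf3, of the printed Maff window and of Fosl2 lie 34706, 899 and 671 bases inside the annotated gene. A match is a description of the sequence only.

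Whether antigen raised each gene was read from IgE DNP against IgE. After 1 h of antigen, 9 of the 10 genes rose in PEP+/+ cells and the same 9 rose in PEP-/- cells, and Batf did not pass the test in either (edgeR quasi-likelihood test, Benjamini-Hochberg adjusted p under 0.05). Of all 13305 genes, 4.01% were called higher in PEP+/+ and 4.69% in PEP-/- cells, and 1.89% and 2.53% were called lower. The median log2 fold change of the 10 genes was 2.56 and 3.07, beside 0.01 and -0.02 over all genes. Without PEP+/+ IgE replicate 2 the count was 5 of 10 in PEP+/+ cells, and without either IgE DNP replicate 2 or IgE replicate 2 it was 5 of 10 in PEP-/- cells, whereas Fosb, Fosl1, Atf3 and Maff were called whichever sample was left out. The sum of the 3 basophil markers was higher with antigen too. Their summed level was 560 to 623 CPM in PEP+/+ IgE and 784 to 795 CPM in PEP+/+ IgE DNP, and 539 to 582 and then 750 to 882 CPM in PEP-/- cells. Most of this was Cd200r3, at 198 to 837 CPM over the 16 samples, so the sum mainly follows that 1 gene. Mcpt8 and Prss34 were detected in all 16 samples at no more than 62.8 and 59.4 CPM. Whether the share of basophils changed, and the part of these markers in the results, was not tested. Levels of the 10 genes in each sample are plotted with CPM on a log axis.

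**Figure D1:**
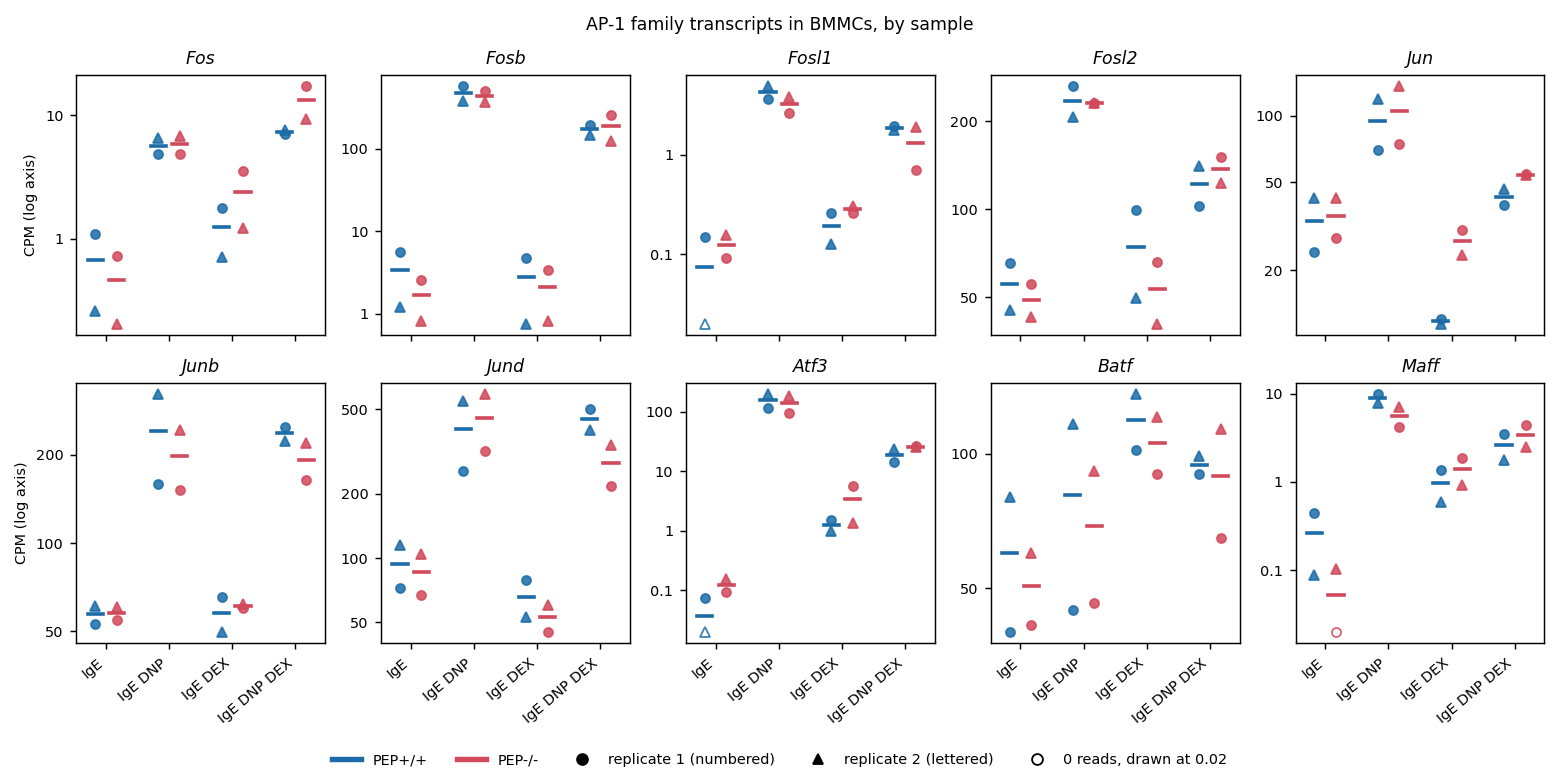
Level of each AP-1 family gene (CPM, log axis) under the 4 treatments, in PEP+/+ (blue) and PEP-/- (red) BMMCs. Circles are replicate 1, triangles replicate 2, bars the mean of 2, and open symbols samples with 0 reads. For every gene but Batf, all IgE DNP samples sit above all IgE samples, and Atf3 in IgE DNP DEX sits between 14.1 and 26.3 CPM, below its 95.5 to 195 CPM in IgE DNP.

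Among the Fos proteins, Fosb, an early-response partner of Jun, reached the highest level per kb after antigen. Fosb (ENSMUSG00000003545, GRCm38 chr7:19302696-19310051) stood at 5.58 and 1.21 CPM in PEP+/+ IgE and at 572 and 379 CPM in PEP+/+ IgE DNP, and in PEP-/- cells at 2.55 and 0.823 CPM and then 506 and 372 CPM. The groups lay far apart in both genotypes, with log2 fold changes of 7.10 ± 1.03 (SE, adjusted p = 0.00183) and 8.10 ± 1.09 (adjusted p = 0.000991). Replicate 1 was above replicate 2 in all 8 conditions for this gene, by a median of 1.13 on the log2 scale.

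Fos (ENSMUSG00000021250, chr12:85473890-85477273), the classical immediate early gene of the family, was scarce throughout. It stood at 1.1 and 0.26 CPM in PEP+/+ IgE, from 15 and 3 reads, and at 4.82 and 6.53 CPM in PEP+/+ IgE DNP. In PEP-/- cells it stood at 0.728 and 0.206 CPM and then at 4.84 and 6.77 CPM. The samples with antigen were all higher than those without, and the log2 fold changes were 3.01 ± 0.75 (adjusted p = 0.0387) and 3.73 ± 0.79 (adjusted p = 0.0141). Leaving out any of the 4 samples of the PEP+/+ comparison in turn ended the call there, at log2 fold changes from 2.35 to 4.40.

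The Fos-related genes differed widely in level. Fosl2 (ENSMUSG00000029135, chr5:32135801-32157842), which encodes Fra-2, was already present in sensitized cells, at 65.8 and 45.3 CPM in PEP+/+ and 55.5 and 42.8 CPM in PEP-/-. Antigen brought it to 263 and 207 CPM and to 231 and 230 CPM, log2 fold changes of 2.08 ± 0.36 (adjusted p = 0.00523) and 2.23 ± 0.36 (adjusted p = 0.0029). Fosl1 (ENSMUSG00000024912, chr19:5447547-5455946), which encodes Fra-1, was nearly undetected in sensitized cells, with 2 reads over both PEP+/+ IgE samples and 4 over both PEP-/- IgE samples. It reached 3.59 and 4.84 CPM in PEP+/+ IgE DNP and 2.63 and 3.8 CPM in PEP-/- IgE DNP. The ratio of summed reads at equal depth was 52.3 (95% exact interval 14 to 439) in PEP+/+ and 25.3 (9.58 to 94.7) in PEP-/- cells, and these intervals cover counting error only. The adjusted p was 0.00207 and 0.00354, and the fitted folds of 5.59 and 4.55 on the log2 scale depend on edgeR's prior count. Exons of Ccdc85b overlap Fosl1 on the other strand, and whether the counting used the strand was not stated.

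The Jun genes, whose proteins are the obligate partners of the Fos proteins, were expressed before antigen and rose in both genotypes. Jund (ENSMUSG00000071076, chr8:70698949-70700616), the constitutive member of the group in many cells, stood at 72.3 and 115 CPM in PEP+/+ IgE and at 257 and 547 CPM in PEP+/+ IgE DNP. In PEP-/- cells it stood at 67.4 and 104 CPM and then at 319 and 586 CPM. No antigen sample of Jund overlapped a sample without antigen, and the log2 fold changes were 2.10 ± 0.45 (adjusted p = 0.0171) and 2.40 ± 0.45 (adjusted p = 0.00728). Junb (ENSMUSG00000052837, chr8:84974484-84978718), which can oppose Jun in some cells, went from 53 and 61 CPM to 159 and 322 CPM in PEP+/+ cells and from 54.7 and 60.5 CPM to 152 and 244 CPM in PEP-/- cells. Its log2 fold changes were 2.08 ± 0.33 (adjusted p = 0.00344) and 1.78 ± 0.33 (adjusted p = 0.00652). Jun (ENSMUSG00000052684, chr4:95049034-95052222), encoding c-Jun, went from 24.2 and 42.7 CPM to 70.1 and 119 CPM in PEP+/+ and from 28 and 42.7 CPM to 74.5 and 136 CPM in PEP-/- cells. The rise of Jun was the smallest called among the 10 genes in either genotype, at 1.50 ± 0.37 (adjusted p = 0.0364) and 1.57 ± 0.37 (adjusted p = 0.0248) on the log2 scale, and it lost its call in 3 of the 4 fits that left out a sample, in each genotype. Such fits also ended calls of Jund in both genotypes and of Junb in PEP-/- cells, but not of Junb in PEP+/+ cells. The log2 fold changes then ran from 1.43 to 2.52 and from 1.91 to 2.78 for Jund in PEP+/+ and PEP-/- cells. For Junb they ran from 1.45 to 2.47 and from 1.41 to 2.09. Junos and Prdx2 overlap exons of Jun and Junb on the other strand, and Gm11175 those of Jund.

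Atf3, an ATF-group factor that pairs with Jun and often represses, had the largest fitted rise of all 13305 genes in PEP+/+ cells and the third largest in PEP-/- cells. Atf3 (ENSMUSG00000026628, chr1:191170296-191218039) had 1 and 0 reads in PEP+/+ IgE and 1 and 3 reads in PEP-/- IgE. After antigen it stood at 114 and 195 CPM, from 1205 and 1735 reads, and at 95.5 and 183 CPM, from 1164 and 3322 reads. The ratio of summed reads was 3798 (95% exact interval 681 to 150067) in PEP+/+ and 1124 (439 to 4127) in PEP-/- cells, with adjusted p = 4.08e-05 and 4.51e-05. Both calls held whichever sample was left out.

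Maff, a small Maf protein that has no activation domain of its own, also started near the detection limit. Maff (ENSMUSG00000042622, chr15:79346621-79359076) had 6 and 1 reads in PEP+/+ IgE and 0 and 2 reads in PEP-/- IgE. It reached 9.84 and 7.88 CPM in PEP+/+ IgE DNP and 4.18 and 7.1 CPM in PEP-/- IgE DNP, ratios of 32.1 (15.3 to 81.1) and 90.2 (24.6 to 751) with adjusted p = 0.00361 and 0.00176. Batf (ENSMUSG00000034266, chr12:85686669-85709087), which pairs with Jun and with IRF4 in lymphoid cells, was the exception. It stood at 40 and 80.1 CPM in PEP+/+ IgE and at 44.8 and 117 CPM in PEP+/+ IgE DNP, and in PEP-/- cells at 41.3 and 59.9 CPM and then 46.3 and 91.7 CPM. The groups overlapped in both genotypes, and the log2 differences of 0.43 ± 0.49 (adjusted p = 0.831) and 0.45 ± 0.49 (adjusted p = 0.788) did not pass. The lettered sample of Batf was above the numbered one in all 8 conditions.

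Each gene's share of the family's summed level per kb showed how the pool of transcripts was made up. The 10 genes summed to between 109 and 171 CPM per kb in the 4 IgE samples and to between 457 and 769 CPM per kb in the 4 IgE DNP samples. Jund was the most abundant per kb in every IgE and IgE DNP sample, with 33.8 and 42.6% of the sum in PEP+/+ IgE DNP and 40.9 and 47.4% in PEP-/- IgE DNP, though with the longest transcript as length Batf led in 3 of the 4 IgE samples. Atf3 went from at most 0.048% of the sum in IgE samples to 11.6 and 11.8% in PEP+/+ IgE DNP and 9.47 and 11.4% in PEP-/- IgE DNP. Fosb took 20.1 and 7.89%, and 17.3 and 8.03%, so its share differed more between replicates than between genotypes. Fos held no more than 2.12% of the sum in any sample. In IgE DEX samples the order changed, and Batf led in all 4 with 43.9 to 60.5% of a sum of 139 to 165 CPM per kb.

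**Figure D2:**
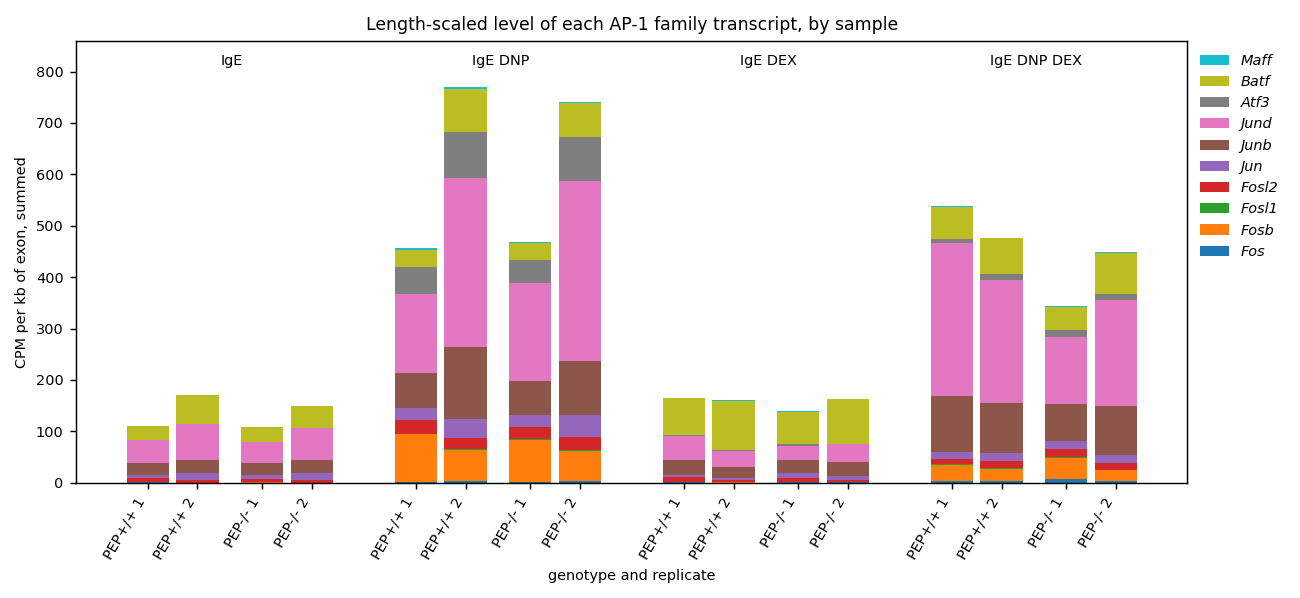
Level of each AP-1 family gene per kb of exon (CPM per kb, stacked), in each of the 16 samples grouped by treatment. The summed level is 109 to 171 in IgE, 457 to 769 in IgE DNP, 139 to 165 in IgE DEX and 344 to 538 in IgE DNP DEX samples, with Jund the widest band in every sample with antigen and Batf in every IgE DEX sample.

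How far DEX lowered the antigen-induced levels was read from IgE DNP DEX against IgE DNP. Atf3 was the gene called lower in each genotype, 1 of 10, where 1.05% of all genes were called lower in PEP+/+ and 1.19% in PEP-/- cells. With the replicate block, 5 of the 10 were lower in each genotype, against 9.76% and 9.33% of all genes. These were Fosb, Fosl2, Jun, Atf3 and Maff in PEP+/+ and Fosb, Fosl1, Fosl2, Jun and Atf3 in PEP-/- cells. With both genotypes averaged, Fosl2, Jun and Atf3 were lower (3 of 10, against 4.99% of all genes), and the block added Fosb, Fosl1 and Maff (6 of 10, against 17.4%). Fos, Junb, Jund and Batf were called in none of these fits. The averaged count was 1 without any IgE DNP DEX sample or either IgE DNP replicate 2. These comparisons share the IgE DNP samples with the antigen comparison above. The summed basophil markers were lower with DEX as well, at 436 to 479 CPM in PEP+/+ and 431 to 446 CPM in PEP-/- IgE DNP DEX, and at 270 to 392 and 228 to 279 CPM in IgE DEX, and their part was not tested.

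Atf3 had the largest log2 change with DEX in the family. It stood at 14.1 and 23.1 CPM in PEP+/+ IgE DNP DEX, which is 12.3% of the antigen level in the numbered and 11.8% in the lettered set. In PEP-/- cells it stood at 26.3 and 25.2 CPM, 27.5% and 13.8% of the antigen level. No sample with DEX reached the lowest antigen sample, and Atf3 fell by 3.05 ± 0.55 on the log2 scale in PEP+/+ (adjusted p = 0.011) and by 2.43 ± 0.53 in PEP-/- cells (adjusted p = 0.032). Averaged over genotypes it fell by 2.74 ± 0.38 (adjusted p = 0.000927). The call within a genotype was lost in 2 of 4 fits that left out a sample in PEP+/+ and in 3 of 4 in PEP-/- cells.

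Fosb, Fosl1, Fosl2 and Jun had smaller fitted changes. Fosb stood at 197 and 149 CPM in PEP+/+ and at 259 and 124 CPM in PEP-/- IgE DNP DEX, which left 34.5 and 39.4%, and 51.2 and 33.3%, of the antigen level within sets. Its averaged log2 change was -1.33 ± 0.55, with adjusted p = 0.169 and, with the block, 0.000405. Fosl2 stood at 103 and 141 CPM and at 151 and 123 CPM, and fell by 0.85 ± 0.24 on average (adjusted p = 0.048 and, with the block, 0.00184), a call that the fit without the block lost whichever of the 8 samples was left out. Jun stood at 39.7 and 46.6 CPM and at 54.4 and 54.1 CPM, and fell by 1.04 ± 0.26 on average (adjusted p = 0.0248 and, with the block, 0.000678), a call lost in 6 of those 8 fits. Every DEX sample of Fosb, Fosl2 and Jun was below every antigen-only sample. Fosl1, at 1.95 and 1.75 CPM and 0.704 and 1.9 CPM, was likewise below its antigen range, with an averaged change of -1.25 ± 0.42 (adjusted p = 0.0897 and, with the block, 0.00407).

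Maff differed between sets in PEP-/- cells. It stood at 3.52 and 1.75 CPM in PEP+/+ IgE DNP DEX, 35.7 and 22.2% of the antigen level, but at 4.38 and 2.47 CPM in PEP-/-, 105 and 34.8% of it. The averaged change of Maff was -1.25 ± 0.45 (adjusted p = 0.112 and, with the block, 0.00328).

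The remaining genes passed no test for DEX in activated cells. Junb stood at 250 and 224 CPM in PEP+/+ and at 164 and 219 CPM in PEP-/- IgE DNP DEX, within its antigen range, and its averaged change was -0.04 ± 0.22 (adjusted p = 0.957). Jund stood at 498 and 401 CPM and at 219 and 341 CPM, and its averaged change was -0.27 ± 0.30 (adjusted p = 0.686). In PEP-/- cells Jund was at 68.4% and 58.2% of the antigen level, and its lowest value of 219 CPM lay below every sample with antigen alone, with a log2 difference of -0.69 ± 0.43 (adjusted p = 0.565). In PEP+/+ cells the sets went opposite ways for Jund, Junb and Batf, with 194%, 157% and 201% of the antigen level in the numbered set and 73.4%, 69.4% and 84.5% in the lettered set. Fos had its own highest values in IgE DNP DEX samples, at 7.03 and 7.56 CPM in PEP+/+ and 17.1 and 9.23 CPM in PEP-/-, all above its 4.82 to 6.77 CPM with antigen alone. Its averaged log2 difference of 0.77 ± 0.46 did not pass (adjusted p = 0.354 and, with the block, 0.068). Batf, at 90.1 and 98.8 CPM and 64.7 and 114 CPM, had an averaged difference of 0.30 ± 0.35 (adjusted p = 0.695).

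**Figure D3:**
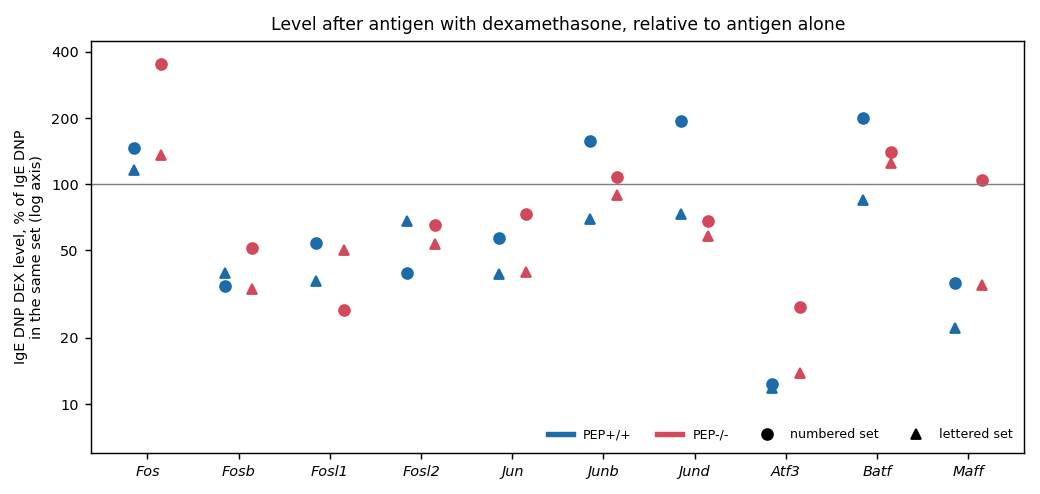
Level in IgE DNP DEX as a percentage of IgE DNP in the same set and genotype, for each AP-1 family gene (log axis, line at 100%). Circles are the numbered and triangles the lettered samples, PEP+/+ in blue and PEP-/- in red. Atf3 lies at 11.8 to 27.5%, and within each set and genotype below every other gene except Fosl1, at 26.8% in the numbered PEP-/- samples, while all 4 values of Fos lie above 100%.

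The antigen response in the presence of DEX was read from IgE DNP DEX against IgE DEX. In PEP+/+ cells 6 of the 10 genes rose (2.95% of all genes), and in PEP-/- cells 4 did (2.99%). With the block, 8 rose in each genotype, all but Batf and Maff, against 11.7% and 10.3% of all genes. Fosb had the largest change, 6.02 ± 0.98 on the log2 scale in PEP+/+ (adjusted p = 0.00578) and 6.40 ± 1.00 in PEP-/- cells (adjusted p = 0.00446). Junb rose by 2.04 and 1.65, Jund by 2.78 and 2.41, and Atf3 by 3.94 and 2.84 on the log2 scale, with adjusted p of at most 0.0175 for these 3 genes. Fosl1 rose by 3.25 ± 0.71 in PEP+/+ cells (adjusted p = 0.0268), and its 2.18 ± 0.70 in PEP-/- cells did not pass (adjusted p = 0.132 and, with the block, 0.0245). Jun rose by 1.87 ± 0.38 in PEP+/+ cells (adjusted p = 0.0181), and its 1.00 ± 0.37 in PEP-/- cells did not pass (adjusted p = 0.196 and, with the block, 0.017). Fos had differences of 2.58 and 2.43 that did not pass (adjusted p = 0.0728 and 0.0778), and that passed with the block (0.00142 and 0.00164) and in DESeq2 (0.0036 and 0.00569). Fosl2 had differences of 0.72 and 1.36 that did not pass (adjusted p = 0.33 and 0.0561), and that passed with the block (0.029 and 0.0013) and, in PEP-/- cells, in DESeq2 (0.00579). Maff, at 1.42 ± 0.68 and 1.26 ± 0.66, and Batf, at -0.33 ± 0.49 and -0.24 ± 0.49, passed in neither fit. Without IgE DEX replicate 2 of a genotype, its count was 0 of 10.

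**Figure D4:**
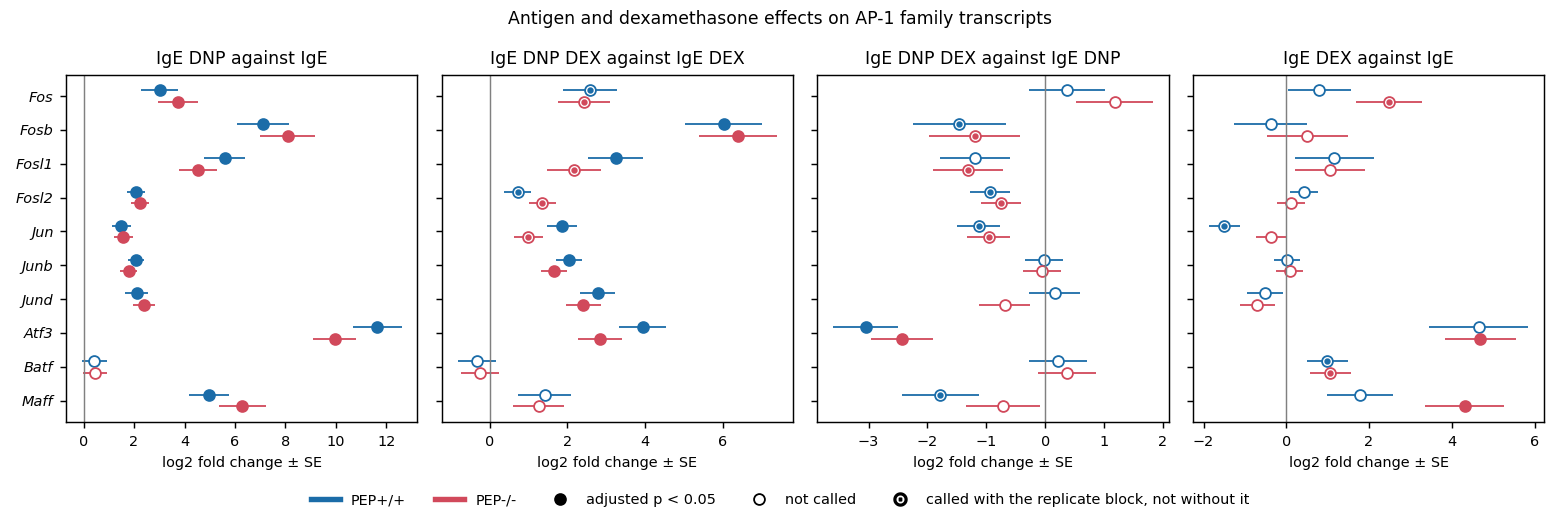
Log2 fold changes with SE (edgeR, n = 2 per condition) of the 10 AP-1 family genes in 4 comparisons, PEP+/+ in blue and PEP-/- in red. Filled points passed an adjusted p of 0.05, dotted points passed with the replicate block and not without it, and Atf3 is the gene with filled points in both genotypes for IgE DNP DEX against IgE DNP.

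Whether the antigen effect itself differed with DEX was tested as an interaction over both genotypes. Atf3 and Maff passed (2 of 10, against 0.271% of all genes called lower), and with the block Fosl2 as well (3 of 10, against 1.07%). The antigen effect on Atf3 was lower with DEX than without, by a log2 difference of -7.41 ± 0.79 (adjusted p = 0.00355), the lowest value of all 13305 genes. That on Maff was lower too, by -4.29 ± 0.78 (adjusted p = 0.0487). The Atf3 call held in all 16 fits that left out a sample, and the Maff call in none. Fosl2 had -1.12 ± 0.34 (adjusted p = 0.677 and, with the block, 0.0364). For Atf3 and Maff the levels without antigen were higher with DEX than without it, and those with antigen were lower on average. The fitted size rests on the few reads in IgE samples and is no bound.

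DEX in cells without antigen was read from IgE DEX against IgE. None of the 10 genes passed in PEP+/+ cells, where 3.18% of all genes were called (3 of the 10 had an unadjusted p under 0.05, and DESeq2 called 2). Atf3 and Maff passed in PEP-/- cells, where 3.34% of all genes were called. Atf3 stood at 1.5 and 0.967 CPM in PEP+/+ IgE DEX, from 23 and 23 reads, and at 5.55 and 1.32 CPM in PEP-/- IgE DEX, from 107 and 13 reads. All 4 values were above the 0 to 0.154 CPM of the IgE samples, with ratios of summed reads of 29.6 (5.05 to 1193) in PEP+/+ (adjusted p = 0.066) and 31.4 (11.9 to 117) in PEP-/- cells (adjusted p = 0.0111). Maff stood at 1.37 and 0.589 CPM in PEP+/+ (ratio 3.21, interval 1.41 to 8.57, adjusted p = 0.395) and at 1.87 and 0.915 CPM in PEP-/- cells (ratio 23.5, interval 6.14 to 200, adjusted p = 0.0316). Leaving out any of the 4 samples in turn ended the Maff call in PEP-/- cells, and leaving out 3 of the 4 ended that of Atf3.

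With the block, 2 of the 10 genes passed in PEP+/+ (15.6% of all genes) and 4 in PEP-/- cells (14.7%). The PEP+/+ count was close to the share of all genes. Batf was called higher with DEX by this fit in both genotypes. It went from 40 and 80.1 CPM to 102 and 136 CPM in PEP+/+ cells. In PEP-/- cells it went from 41.3 and 59.9 CPM to 90.2 and 121 CPM. Its log2 changes were 1.05 ± 0.23 and 1.08 ± 0.23 with the block (adjusted p = 0.00537 and 0.00463), and 0.99 ± 0.50 and 1.06 ± 0.50 without it (adjusted p = 0.493 and 0.434). Jun fell in PEP+/+ cells, to 12.1 and 11.5 CPM, by 1.47 ± 0.27 on the log2 scale with the block (adjusted p = 0.00173, and 0.0554 without it). In PEP-/- cells Jun stood at 30.6 and 23.6 CPM and passed in neither fit. Its log2 difference there was -0.31 ± 0.26 with the block (adjusted p = 0.516) and -0.38 ± 0.36 without it (adjusted p = 0.917). Fos rose in PEP-/- cells with the block, to 3.53 and 1.22 CPM, by 2.54 ± 0.67 (adjusted p = 0.0182, and 0.144 without it). In PEP+/+ IgE DEX it stood at 1.76 and 0.715 CPM and passed in neither fit. Its difference there was 0.75 ± 0.67 with the block (adjusted p = 0.531) and 0.79 ± 0.76 without it (adjusted p = 0.892).

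PEP made no called difference to any of the 10 genes within a treatment. In each of the 4 treatments 0 of 10 differed between genotypes, where 0.00752% of all genes, that is Ptpn22 alone, did (unadjusted p under 0.05 for 0 members after IgE, IgE DNP and IgE DNP DEX and for 2 after IgE DEX, and DESeq2 also called 0 of the 10, with no adjusted p given for Fosl1 after IgE DNP). After antigen the log2 differences of PEP-/- over PEP+/+ ran from -0.65 for Maff to 0.17 for Jund, with SE between 0.32 and 0.77, so differences of that size were not detectable with these samples. The interaction of genotype with antigen, and that of genotype with DEX in activated cells, called 0 of the 10 and 0% of all genes (unadjusted p under 0.05 for 0 members in both, 0 of the 10 by DESeq2). The difference between genotypes in the Jun response to DEX alone was not tested as an interaction. Jun after IgE DEX was the largest contrast by p, at 12.1 and 11.5 CPM in PEP+/+ and 30.6 and 23.6 CPM in PEP-/- cells without overlap, a log2 difference of 1.20 ± 0.37 with unadjusted p = 0.00758 in edgeR and adjusted p = 1 (with the block 0.0566). Averaged over treatments 0 of 10 differed (1.59% of all genes), and with the block Jun did, by 0.46 ± 0.13 (adjusted p = 0.0234, and 0.293 without it), where 17.4% of all genes were called. That is 1 of the 10 genes, a smaller share than over all genes.

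Related basic leucine zipper genes moved in both directions. Of 30 such genes listed, 27 were tested, and antigen raised 4 and lowered 3 in each genotype, beside 4.01% and 4.69% of all genes raised and 1.89% and 2.53% lowered in PEP+/+ and PEP-/- cells. With the block, antigen raised 9 in PEP+/+ and 11 in PEP-/- cells and lowered 3 in each. The share of all genes called with the block is not given for the antigen comparisons. The shares above are from the fit without the block, so the block counts cannot be read against them. Nfil3, a repressor with a known role in IL3 signalling and circadian control, went from 2.5 and 3.82 CPM to 44.4 and 54.3 CPM in PEP+/+ cells (log2 fold change 3.97 ± 0.33, adjusted p = 4.01e-05, and 3.97 ± 0.32 in PEP-/- cells, adjusted p = 3.52e-05). Crem, which yields the early repressor ICER of cAMP responses, rose by 2.40 and 2.24 on the log2 scale. Nfe2, an erythroid and megakaryocytic partner of small Maf proteins, fell by 1.76 and 1.77, and Maf by 1.24 and 1.51. All 4 had adjusted p of at most 0.00713 in edgeR.

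Of 35 genes of the MAP kinase cascade, 34 were tested, and antigen raised 7 in each genotype and lowered 0 in PEP+/+ and 1 in PEP-/- cells, beside the same 4.01% and 4.69% of all genes raised and 1.89% and 2.53% lowered. With the block, antigen raised 9 in each genotype and lowered 2 in PEP+/+ and 3 in PEP-/- cells. The shares above are from the fit without the block, so these block counts cannot be read against them. Map3k8, a kinase that activates the ERK branch, rose by 3.47 and 4.09 on the log2 scale, and Map2k3, which activates p38, by 2.15 and 2.32. Mapkapk3, a kinase downstream of p38, rose by 1.87 and 1.91, with adjusted p of at most 0.000999 for these 3 genes in edgeR. Of 13 tested genes for factors that bind the promoters of Fos and Jun genes, antigen raised 0 and lowered 1 in each genotype. That was Mrtfa, a coactivator of SRF, which fell by 0.81 ± 0.20 (adjusted p = 0.036) and by 0.91 ± 0.20 (adjusted p = 0.0168), calls lost in 4 of 4 and 3 of 4 fits without a sample. With the block, antigen raised 1 and lowered 2 of the 13 genes for promoter-binding factors in each genotype. The share of all genes in that fit is not given, so these counts are not read as a result about the list. The median log2 fold change of the 3 lists in PEP+/+ cells was 0.30, 0.21 and -0.04, beside 0.01 over all genes and 2.56 for the 10 AP-1 genes.

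The genes whose mean level over the 8 conditions ran most like a member's were named by Pearson's r of log2(CPM + 0.5), a description over 8 points that share the strong antigen step. For Fosb these were Egr2, another immediate early factor (r = 0.9992), C5ar1 and Plek. For Atf3, which combined a step with antigen and a drop with DEX, they were BC049352 (r = 0.9964), Zc3h12c and Sik1. For Fosl1 they were Arih2, Rcan1 and Dusp8, the last of these a phosphatase of MAP kinases, and for Fosl2 they were Clcn5, Chrna2 and Mir155hg. For Fos they included Mindy3 and Rasgef1a, and they were for Jun P4ha1, Gfpt2 and Arhgap23, for Junb Rab38, Acod1 and Lcat, for Jund Selenok, Arpc2 and Sin3b, and for Maff Sf1, Ifrd1 and Brd2. Batf, the gene without an antigen step, had the loosest neighbours, with Ankrd9 at r = 0.9641, followed by Ranbp6 and Arl5b.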

How the data were processed

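The authors aligned reads of a stranded mRNA library with TopHat2 to GRCm38 and counted them on genes with HTSeq, as their methods and processing notes state, and deposited raw counts per gene, whole numbers without normalization, for each of 16 samples. Reads with more than a single alignment were left out of the deposited counts. The strand setting of the counting is not given in the sources used here. All else was computed from these counts. Groups came from the labels. Gene names and exon lengths came from GENCODE M21 on GRCm38, which named 37693 of 39179 identifiers (96.21%), and promoter sequences from RefSeq (GRCm38.p6).

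Counts were scaled by TMM, filtered by filterByExpr (minimum count 10) and fitted over all samples by glmQLFit and glmQLFTest of edgeR 4.0.16 (R 4.3.3), with 1 mean per condition and 8 residual degrees of freedom. A gene was called where its p, adjusted by Benjamini-Hochberg over 13305 genes within each of 17 comparisons, was under 0.05. The common biological coefficient of variation was 0.312, and 0.133 with the replicate block. Total counts ranged from 8612531 to 22143526 (median 12814043.5), and reads without molecular identifiers are not independent molecules, so intervals of ratios (95%, exact binomial on summed reads at equal depth) cover counting error only. The procedure was tested on simulated data. Those counts were drawn without a difference between the sets, and no call here rests on them. For log2 differences between sets, the pairing check and neighbouring patterns, 0.5 CPM was added.

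Numbered samples were taken as replicate 1 and lettered samples as replicate 2, by the titles. Same-set samples deviated together from their condition means in all 28 pairs of conditions (r from 0.454 to 0.835 over genes), so the sets were taken to pair the samples. The labels do not say what a set shares. Alternatives were DESeq2 1.42.0, its size factors in edgeR, no filter, only the conditions compared, the block, each sample left out and the longest transcript as length. The named genes are the 10 members, at most 4 genes per list called in both genotypes after antigen with the smallest larger adjusted p, and 3 neighbours per member. Of the genes so named, 2 are not reported here. The members, lists and tests were chosen with earlier results of these data known. Proteins were not analysed here.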

Additional observations from a re-analysis of the deposited data

Results flagged for a closer look

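The antigen effect on Atf3 differed between cells without and with DEX, a log2 difference of -7.41 over both genotypes (edgeR interaction test, adjusted p = 0.00355). Atf3 ran from 95.5 to 195 CPM in IgE DNP samples and from 14.1 to 26.3 CPM in IgE DNP DEX samples, while it ran from 0 to 0.154 CPM in IgE and from 0.967 to 5.55 CPM in IgE DEX samples. The antigen effect on Maff differed in the same way, by -4.29 (adjusted p = 0.0487), with 0 to 0.441 CPM in IgE, 4.18 to 9.84 CPM in IgE DNP, 0.589 to 1.87 CPM in IgE DEX and 1.75 to 4.38 CPM in IgE DNP DEX samples. Both differences rest on few reads in the IgE samples.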

How the results depend on the processing

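Counts of called genes among the 10 stayed within 1.5 times of the values given for all 17 comparisons with DESeq2's size factors in edgeR, and for 15 with DESeq2. DESeq2 called 2 for DEX without antigen in PEP+/+ cells and 5 for DEX in activated cells with genotypes averaged. Without the filter, counts were 4 and 3 for DEX in activated PEP+/+ and PEP-/- cells, 5 for their average, 3 and 4 for DEX without antigen, 7 for antigen under DEX in PEP-/- cells, 4 for the interaction of antigen with DEX, and 1 for genotype after IgE DEX. Where the fit held no other conditions than those compared, the count was 2 for antigen in PEP+/+ cells and 0 in PEP-/- cells for DEX with antigen, DEX without antigen and antigen under DEX. That fit has fewer samples to estimate the spread from. The replicate block gave 5 and 5 for DEX in activated cells and 6 for their average, 2 and 4 for DEX without antigen, 8 for antigen under DEX in PEP-/- cells and 1 for genotype over all treatments, and changed no other count by over 1.5 times. For the other counts that moved, the cause was not tested.

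With a sample left out, counts ran from 5 to 8 and 5 to 9 for antigen in PEP+/+ and PEP-/- cells, 0 to 1 for DEX in activated cells of either genotype, 1 to 2 for their average, 0 to 1 for DEX without antigen in PEP-/- cells, 0 to 4 and 0 to 3 for antigen under DEX, and stayed at 1 for the interaction. The lone sample of a condition is then assumed to vary like the others. These fits held no replicate block, so they also unbalanced the sets. Of the log2 fold changes, none that was called changed sign. Junb for DEX in activated PEP+/+ cells became 0.02 without the filter and with the block. With a sample left out, values changed sign for Junb (-0.41 to 0.61 in PEP+/+, -0.34 to 0.33 in PEP-/- and -0.23 to 0.28 averaged), Jund (-0.25 to 0.84 in PEP+/+ and -0.47 to 0.08 averaged) and Batf (-0.27 to 1.11 in PEP+/+ and -0.10 to 0.95 in PEP-/-) for DEX in activated cells, and for Batf after antigen (-0.45 to 1.01 and -0.12 to 0.86) and after antigen under DEX in PEP-/- cells (-0.69 to 0.14). With the longest transcript as length, 27 of 80 mean shares moved by more than their replicate spread. Fos, Fosl1, Maff and Atf3 had at most 15 reads in any IgE sample, which limits their folds.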
